A study of Arabidopsis with 22 samples.

Results

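Transcript levels of wild-type Col-0 plants were compared between ZT13 and ZT1, 13 and 1 h after light onset. The 3 RNA libraries of Col-0 at ZT13 and the 3 of Col-0 at ZT1 entered the comparison, 6 of the 22 libraries of the study, and they were chosen by their labels of genotype and collection time alone. The plants were 25 days old, were harvested whole, and had grown at 22 °C and 60% humidity under 180 µmol of light per square meter and second in days of 12 h light and 12 h dark. Plants at ZT13 had thus been in the dark for 1 h and plants at ZT1 in the light for 1 h, so that time of day and the light condition cannot be told apart. The other 16 libraries, used here for the shared variance and for a last set of comparisons, came from plants of the same age, conditions and times: *lux-1*, with an early nonsense mutation in the evening clock gene *LUX* (3 libraries at ZT13 and 3 at ZT1), *acd6-1*, with constitutively high defense and small size (2 and 3), and the double mutant *acd6-1lux-1* (2 and 3).

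The plant circadian clock consists of genes that repress or activate one another in turn over the day. Around dawn the MYB factors CCA1 and LHY are made and repress evening genes; the PSEUDO-RESPONSE REGULATOR (PRR) proteins follow one another through the day; at dusk the evening complex of ELF3, ELF4 and LUX forms and represses its targets into the night. In leaves, outputs of this clock and of the light signal include photosynthesis genes, the synthesis and nightly breakdown of starch, pigment synthesis, growth, flowering time, the cold response and defense.

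Mapped reads numbered 11628138 to 14252869 in the ZT13 libraries and 12693672 to 13554798 in the ZT1 libraries. Libraries of one time correlated with each other at 0.9915 to 0.9949 at ZT13 and 0.9925 to 0.9931 at ZT1, and across times at 0.9286 to 0.9431 (Pearson's r of log2 values over genes, which are not independent replicates). The composition of the libraries differed between the times. The 100 most abundant genes of each library took 17.3 to 18.5% of the reads at ZT13 and 27.99 to 28.81% at ZT1, and the light-harvesting genes alone took 1.36 to 1.45% at ZT13 and 8.45 to 9.10% at ZT1. Neither measure overlapped between the times (exact two-sided permutation test, p = 0.1 each, the smallest that 3 against 3 libraries can give).

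RPKM is a share of the mapped reads, so a change of composition can move the values of other genes. On the RPKM values as deposited, the median of all 21666 genes tested was 0.24 higher at ZT13 on the log2 scale. How much of this shift came from composition was not tested. RPKM values were divided by a factor per library, the median over genes of its ratio to the geometric mean of the libraries. The factors were 1.085, 1.062 and 1.108 for the ZT13 libraries and 0.898, 0.882 and 0.880 for the ZT1 libraries, and the median gene then lay at 0.02. All RPKM values below are scaled in this way, and fold changes are differences of log2(scaled RPKM + 1), ZT13 minus ZT1, which understates the change of genes with low values. A gene was called when the Benjamini-Hochberg adjusted p of limma was under 0.1 and the log2 fold change above 1 in size.

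**Figure D1:**
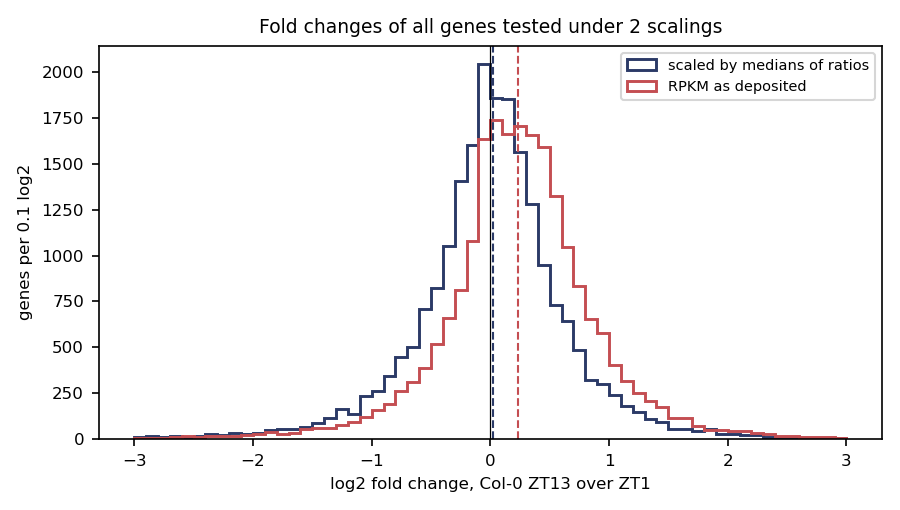
Histogram of the log2 fold change of Col-0 ZT13 over ZT1 for the 21666 genes tested, in bins of 0.1 on the log2 scale, after scaling by medians of ratios (blue) and on RPKM as deposited (red). Dashed lines mark the medians, 0.02 after scaling and 0.24 as deposited, and genes beyond 3 in size lie outside the axis (151 and 154 genes).

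With this scaling, 2473 of the 21666 genes (11.4%) were called, 1179 higher at ZT13 (5.44%) and 1294 lower (5.97%). Counts of list members below are to be read beside these shares. In 2466 of the 2473 the libraries of the 2 times did not overlap, which was also the case for 61.0% of all genes tested. The split depended on the scaling. On RPKM as deposited, 2036 genes were called higher and 809 lower, so that 71.6% of the calls were higher, against 47.7% after scaling and 48.3% after quantile normalization. A total of 1939 genes were called in the same direction under all 3, 1145 higher and 794 lower, whereas 857 genes were called higher on deposited RPKM but not after scaling and 485 lower after scaling but not on deposited RPKM.

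After scaling by medians of ratios, large changes were more often falls than rises. Changes of these sizes were not counted under the other scalings. Of the called genes, 184 were higher and 302 lower by more than 2 on the log2 scale, and 20 were higher and 54 lower by more than 4. Genes called lower also had higher levels, with a median of 26.4 RPKM over the 6 libraries against 18.0 RPKM for genes called higher and 12.3 RPKM for all genes tested.

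*BT2* (AT3G48360), which encodes a BTB and TAZ domain protein of hormone and sugar responses, had the largest rise. It was at 439, 473 and 518 RPKM at ZT13, against 2.81, 2.29 and 1.84 RPKM at ZT1 (log2 fold change 7.18, SE 0.204, adjusted p = 1.30e-14). The second was AT2G33830, annotated as dormancy associated gene 2 (*DRM2*), at 275, 348 and 365 RPKM at ZT13, against 3.37, 2.78 and 1.305 RPKM at ZT1 (log2 fold change 6.61, SE 0.237, adjusted p = 3.14e-13). *DYL1*, a dormancy-associated gene of the same kind, averaged 175 ± 18.4 RPKM at ZT13 and 4.44 ± 1.62 RPKM at ZT1 (SD, n = 3 each, as below). Other genes among the 12 largest rises were *JMJD5*, which encodes a histone demethylase-like protein with a role in the clock (88.4 ± 2.13 RPKM at ZT13 and 0.793 ± 0.06298 RPKM at ZT1), the CONSTANS-like gene *COL9* (99.7 ± 6.96 RPKM at ZT13 and 1.14 ± 0.196 RPKM at ZT1), *COR27*, a night-phased regulator of the clock and of cold responses, the cadmium resistance gene *PCR1* (478 ± 92.9 RPKM at ZT13 and 10.8 ± 6.27 RPKM at ZT1), the thioredoxin-like gene *WCRKC1*, *MEE14*, *CCL* (CCR-like), the DNA J protein gene AT5G23240 and AT3G62550. All 12 had log2 fold changes between 4.79 and 7.18. Absence of overlap between the times was a condition of their selection. *CCL* had the highest level of the 12, at 1449.9, 1506 and 1380.5 RPKM at ZT13, against 65.8, 39.2 and 51.7 RPKM at ZT1.

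The 12 largest falls were 3 genes of the photosystem II antenna (*LHCB2.1*, *LHCB2.2* and *LHCB2.3*), 5 genes of the morning clock (*CCA1*, *LHY*, *LNK2*, *LNK3* and *LNK4*), the starch gene *GBSS1*, the B-box gene *BBX16*, the early light-induced gene *ELIP2* and *LEA3*, a gene of the late embryogenesis abundant family (1.64 ± 0.4504 RPKM at ZT13 and 284 ± 48.6 RPKM at ZT1). Their log2 fold changes lay between -8.12 and -6.41. They averaged at most 20.6 RPKM at ZT13 and at least 138 RPKM at ZT1.

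Most morning-phased clock genes were close to 0 at ZT13. Of 16 tested, 12 were lower at ZT13 and 1 was higher, with a median log2 fold change of −4.64 beside 0.02 for all genes. *CCA1* was at 0.434, 0.325 and 0.3202 RPKM at ZT13, against 198, 192 and 195 RPKM at ZT1 (log2 fold change -7.17, SE 0.19, adjusted p = 5.21e-15), which rests on 27 reads over the ZT13 libraries and 12527 over the ZT1 libraries. *LHY*, its close homolog, was at 0.613, 0.784 and 0.868 RPKM at ZT13, against 207, 203 and 202 RPKM at ZT1 (log2 fold change -6.87, SE 0.101, adjusted p = 3.59e-18). The *LNK* genes, whose proteins are coactivators without a DNA-binding domain of their own that work with the REVEILLE MYB factors, had falls of the same order. *LNK1* averaged 0.461 ± 0.132 RPKM at ZT13 and 92.6 ± 4.25 RPKM at ZT1 (log2 fold change -6.0, SE 0.16, adjusted p = 5.25e-15). *LNK2* averaged 2.41 ± 0.349 RPKM at ZT13 and 309 ± 11.2 RPKM at ZT1, *LNK3* 0.672 ± 0.3502 RPKM at ZT13 and 174 ± 2.85 RPKM at ZT1 and *LNK4* 0.389 ± 0.201 RPKM at ZT13 and 169.8 ± 2.597 RPKM at ZT1.

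Among the *REVEILLE* (RVE) MYB genes the times differed by member. *RVE8*, an activator of evening genes, was at 2.03, 1.399 and 1.71 RPKM at ZT13, against 67.9, 60.7 and 66.99 RPKM at ZT1 (log2 fold change -4.61, SE 0.097, adjusted p = 2.14e-16). *RVE1*, which links the clock to auxin synthesis, averaged 3.43 ± 0.6303 RPKM at ZT13 and 30.8 ± 1.19 RPKM at ZT1 (log2 fold change -2.85). *RVE7* averaged 0.586 ± 0.47 RPKM at ZT13 and 21.8 ± 2.35 RPKM at ZT1 (-3.88) and the related gene *ASG4* averaged 0.138 ± 0.177 RPKM at ZT13 and 27.9 ± 3.66 RPKM at ZT1 (-4.67). *RVE2* was the exception: it was at 123, 109 and 115 RPKM at ZT13, against 3.27, 3.62 and 4.56 RPKM at ZT1 (log2 fold change 4.61, SE 0.176, adjusted p = 6.33e-13), the only member of the morning list that rose. *RVE4* averaged 61.4 ± 6.88 RPKM at ZT13 and 79.9 ± 3.04 RPKM at ZT1, AT4G01280 averaged 13 ± 0.616 RPKM at ZT13 and 19.8 ± 2.73 RPKM at ZT1 and AT5G52660 averaged 7.298 ± 0.687 RPKM at ZT13 and 13.2 ± 1.54 RPKM at ZT1. None of these 3 passed the fold criterion. Their libraries did not overlap, as for 61.0% of all genes tested. The PRR genes of the morning and midday, which repress *CCA1* and *LHY*, were both lower. *PRR9* was at 0.451, 0.188 and 0.208 RPKM at ZT13, against 46.3, 46.9 and 47.3 RPKM at ZT1 (log2 fold change -5.23, SE 0.278, adjusted p = 5.89e-11) and *PRR7* at 3.56, 2.995 and 3.18 RPKM at ZT13, against 44.04, 40.7 and 42.4 RPKM at ZT1 (log2 fold change -3.36, SE 0.099, adjusted p = 2.09e-14).

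**Figure D2:**
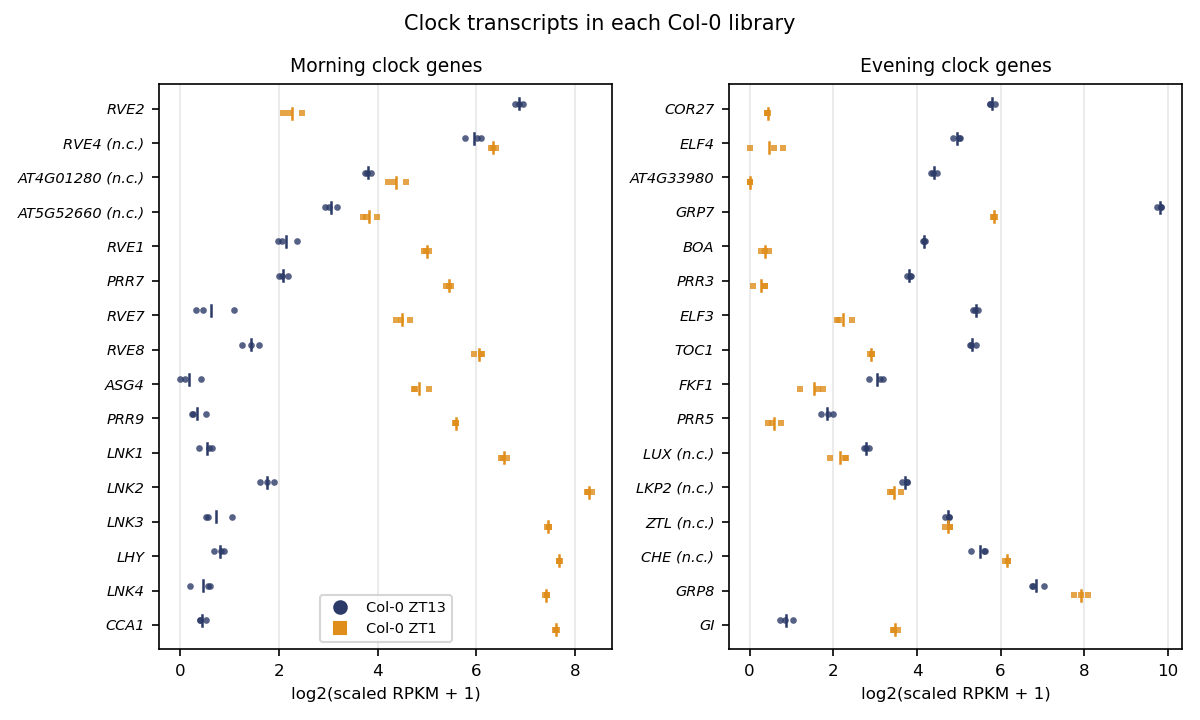
Levels of the 16 morning and 16 evening clock genes as log2(scaled RPKM + 1) in each Col-0 library, with the 3 ZT13 libraries as circles, the 3 ZT1 libraries as squares and a bar at each mean; genes not called are marked n.c. *CCA1* averaged 0.3598 ± 0.0641 RPKM at ZT13 and 195 ± 2.92 RPKM at ZT1, whereas *RVE2* and 10 genes of the evening list lay higher at ZT13.

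Of 16 evening clock genes, 10 were higher at ZT13 and 2 were lower, with a median log2 fold change of 1.97. Of the evening complex, *ELF4* was at 31.1, 31.7 and 28.1 RPKM at ZT13, against 0.495, 0 and 0.748 RPKM at ZT1 (log2 fold change 4.50, SE 0.347, adjusted p = 8.19e-09) and *ELF3* at 39.8, 40.8 and 43.2 RPKM at ZT13, against 3.38, 3.25 and 4.496 RPKM at ZT1 (log2 fold change 3.17, SE 0.113, adjusted p = 2.94e-13). The third member, *LUX*, was at 5.62, 5.91 and 6.17 RPKM at ZT13, against 3.93, 2.76 and 3.88 RPKM at ZT1 (log2 fold change 0.62) and was not called. All its ZT13 libraries were above all its ZT1 libraries, where 61.0% of all genes tested did not overlap. *BOA*, the close homolog of *LUX*, was at 17.2, 16.9 and 16.6 RPKM at ZT13, against 0.371, 0.199 and 0.2803 RPKM at ZT1 (log2 fold change 3.80, SE 0.157, adjusted p = 1.82e-12). The PRR genes of the afternoon and evening were higher: *TOC1* was at 38.3, 37.6 and 41.4 RPKM at ZT13, against 6.54, 6.399 and 6.54 RPKM at ZT1 (log2 fold change 2.42, SE 0.111, adjusted p = 7.07e-12). *PRR3*, whose protein stabilizes TOC1, averaged 13.1 ± 0.513 RPKM at ZT13 and 0.212 ± 0.135 RPKM at ZT1. *PRR5* averaged 2.63 ± 0.369 RPKM at ZT13 and 0.494 ± 0.1596 RPKM at ZT1. Levels of *PRR5* were thus below 4 RPKM at both times.

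*COR27* averaged 54.3 ± 2.28 RPKM at ZT13 and 0.346 ± 0.0138 RPKM at ZT1 (log2 fold change 5.36, from 9 reads over the 3 ZT1 libraries). AT4G33980 was at 19.3, 20.01 and 21.4 RPKM at ZT13 and listed at 0 in all 3 ZT1 libraries, so that no fold is given. The RNA-binding protein gene *GRP7*, a slave oscillator of the clock with peaks in the evening, was at 917, 859 and 907 RPKM at ZT13, against 55.9, 57.4 and 55.2 RPKM at ZT1 (log2 fold change 3.97, SE 0.189, adjusted p = 1.22e-11). Its close homolog *GRP8* went the other way, at 129.7, 106 and 108 RPKM at ZT13, against 241, 272 and 214 RPKM at ZT1 (log2 fold change -1.07), but was not called on RPKM as deposited (-0.78), after quantile normalization (−0.92) or without replicate 2 of ZT1 (−0.99). The homologs may share reads. Of the blue-light receptors of the ZEITLUPE family, which target clock proteins for degradation, *FKF1* was higher (7.32 ± 0.948 RPKM at ZT13 and 1.93 ± 0.561 RPKM at ZT1, log2 fold change 1.52, SE 0.21, adjusted p = 1.05e-05). *ZTL* averaged 25.6 ± 0.909 RPKM at ZT13 and 25.8 ± 1.31 RPKM at ZT1 with overlapping libraries and *LKP2* averaged 12.2 ± 0.647 RPKM at ZT13 and 10.01 ± 1.12 RPKM at ZT1. *GI*, which stabilizes ZTL, was lower at ZT13, at 1.03, 0.656 and 0.8096 RPKM at ZT13, against 9.72, 9.92 and 10.7 RPKM at ZT1 (log2 fold change -2.60, SE 0.147, adjusted p = 1.29e-10). *CHE*, a repressor of *CCA1*, averaged 44.4 ± 5.71 RPKM at ZT13 and 70.2 ± 2.56 RPKM at ZT1 and was not called.

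Of 11 genes of photoperiodic flowering, 5 were lower and 1 was higher (median −0.88). Of the CYCLING DOF FACTOR genes, whose proteins repress *CO* in the morning, *CDF1*, *CDF2* and *CDF3* were lower at ZT13: *CDF1* averaged 5.43 ± 0.473 RPKM at ZT13 and 63.9 ± 0.58 RPKM at ZT1 (log2 fold change -3.34, SE 0.108, adjusted p = 7.13e-14), *CDF2* 1.11 ± 0.155 RPKM at ZT13 and 12.5 ± 0.45 RPKM at ZT1 and *CDF3* 1.52 ± 0.156 RPKM at ZT13 and 74.4 ± 3.35 RPKM at ZT1. AT1G69570, on the same list, averaged 3.74 ± 0.8745 RPKM at ZT13 and 7.62 ± 0.8425 RPKM at ZT1 (−0.88) and was not called, but was called lower on the recovered reads by DESeq2 (−1.03), edgeR (−1.07) and voom (−1.09) and with a pseudocount of 0.1 (−1.03). The *CO*-like genes *COL1* (-3.07) and *COL2* (-5.0) were lower as well. *FT*, the mobile flowering signal, was at 3.902, 2.75 and 3.6 RPKM at ZT13, against 0.157, 0.169 and 0.159 RPKM at ZT1 (log2 fold change 1.92, SE 0.284, adjusted p = 2.20e-05). *CO*, its activator, averaged 2.48 ± 0.514 RPKM at ZT13 and 0.788 ± 0.104 RPKM at ZT1 and had a log2 fold change of 0.95, just short of the criterion. It was called higher by DESeq2 (1.65), edgeR (1.6) and voom (1.53) on the recovered reads, with a pseudocount of 0.1 (1.53) or 0.5 (1.2), on RPKM as deposited (1.11) and without replicate 2 of ZT13 (1.07). *SOC1*, a downstream floral integrator, averaged 53.4 ± 1.98 RPKM at ZT13 and 32.7 ± 3.63 RPKM at ZT1 (0.70). The floral repressor *FLC* averaged 5.16 ± 0.889 RPKM at ZT13 and 6.22 ± 0.639 RPKM at ZT1 with overlapping libraries.

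Most genes of the light-harvesting antenna were lower at ZT13. Their proteins bind chlorophyll and pass light energy to photosystem II (LHCB) and photosystem I (LHCA). Of 20 tested, 17 were lower and 3 were not called (median −3.46 after scaling, −3.17 on deposited RPKM and −2.68 after quantile normalization). *LHCB2.1* was at 19.7, 18.21 and 18.97 RPKM at ZT13, against 5606, 5524 and 5462 RPKM at ZT1 (log2 fold change -8.12, SE 0.141, adjusted p = 1.90e-17). *LHCB2.2* averaged 20.6 ± 1.65 RPKM at ZT13 and 5509 ± 194 RPKM at ZT1 and *LHCB2.3* 8.55 ± 0.854 RPKM at ZT13 and 2137 ± 209 RPKM at ZT1. The *LHCB1* genes, for the most abundant antenna protein, differed in how far they fell. *LHCB1.3*, the member with the highest level, was at 4772, 5419 and 5251 RPKM at ZT13, against 25287, 26283 and 23562 RPKM at ZT1 (log2 fold change -2.28, SE 0.209, adjusted p = 7.42e-08). *LHCB1.1* (-4.09), *LHCB1.2* (-4.28), *LHCB1.4* (-3.69) and *LHCB1.5* (-3.87) had larger falls. Copies of *LHCB1*, of *LHCB2* and of *RBCS* are near-identical in sequence, and how reads were divided among them is not given in the sources used here, so the values of single copies are uncertain.

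*LHCB3* averaged 288 ± 12.7 RPKM at ZT13 and 9668 ± 360.3 RPKM at ZT1 (log2 fold change -5.06, SE 0.127, adjusted p = 2.95e-15). The minor antenna genes *LHCB4.2* (-3.63), *LHCB5* (-2.48) and *LHCB6* (-3.14) fell too. Of the photosystem I antenna, *LHCA4* averaged 534 ± 15.2 RPKM at ZT13 and 8433 ± 397 RPKM at ZT1 (log2 fold change -3.98, SE 0.125, adjusted p = 5.37e-14), with *LHCA1* at -3.29 and *LHCA3* at -2.52. Calls of 2 members rested on the scaling: *LHCB4.1* had a log2 fold change of -1.11 here, -0.82 on deposited RPKM and 0.06 after quantile normalization. *LHCA2* had -1.34, -1.05 and -0.12. Of the 3 members not called, *LHCB4.3* averaged 125 ± 19.7 RPKM at ZT13 and 106 ± 1.52 RPKM at ZT1, *LHCA5* 222 ± 16.4 RPKM at ZT13 and 231 ± 5.68 RPKM at ZT1 and *LHCA6* 149.8 ± 15.3 RPKM at ZT13 and 212 ± 13.4 RPKM at ZT1.

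The Calvin cycle genes, which carry out carbon fixation, had smaller fold changes than the antenna genes, although both sets were among the most abundant transcripts. Of 21 tested, 4 were lower and 1 higher (median −0.37 after scaling, −0.08 on deposited RPKM and 0.05 after quantile normalization, so that the direction of the median depended on the scaling). Over all genes tested, 5.97% were lower and 5.44% higher. *RBCS1A*, for the small subunit of Rubisco and the most abundant transcript of the Col-0 libraries, was at 18670, 21148 and 18434 RPKM at ZT13, against 25348, 29220 and 28880 RPKM at ZT1 (log2 fold change -0.52, not called), and *RBCS1B*, *RBCS2B* and *RBCS3B* lay between -0.58 and -0.37, also not called. The aldolase gene *FBA1* was at 707, 767 and 629.8 RPKM at ZT13, against 3047, 3113 and 3185 RPKM at ZT1 (log2 fold change -2.15, SE 0.137, adjusted p = 6.64e-10) and was lower under all 3 scalings. *RCA*, for Rubisco activase, averaged 3836 ± 319.9 RPKM at ZT13 and 10059 ± 426 RPKM at ZT1 (-1.39 here, -1.10 on deposited RPKM, -0.36 after quantile normalization). *GAPA-2* (-1.14) and *FBA2* (-1.11) were called lower with this scaling only. *CP12-2*, for a small protein that holds Calvin cycle enzymes in an inactive complex, was the one that rose, to 1478, 1526 and 1421 RPKM at ZT13 against 648, 643 and 757 RPKM at ZT1 (log2 fold change 1.11, SE 0.163, adjusted p = 1.92e-05). *CP12-1* averaged 1391 ± 29.1 RPKM at ZT13 and 1172 ± 25.4 RPKM at ZT1. Also not called among the 10 most abundant transcripts were the plastocyanin gene *DRT112* (-0.81) and the photosystem II gene *PSBR* (-0.87).

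The called genes of chlorophyll synthesis lay at particular steps. Of 21 genes of chlorophyll and heme synthesis, 5 were lower and 1 higher (median −0.37 after scaling and −0.08 as deposited). *HEMA1*, for the glutamyl-tRNA reductase that opens the pathway, was at 68.4, 83.2 and 80.3 RPKM at ZT13, against 748, 773 and 776 RPKM at ZT1 (log2 fold change -3.30, SE 0.12, adjusted p = 3.90e-13). *CHLH*, for the large subunit of magnesium chelatase, was at 84.97, 95.4 and 81.8 RPKM at ZT13, against 1051, 1077 and 1083 RPKM at ZT1 (log2 fold change -3.60, SE 0.111, adjusted p = 3.98e-14). *GUN4*, for its activator, averaged 49.1 ± 1.598 RPKM at ZT13 and 576 ± 18.8 RPKM at ZT1, whereas the genes of the other chelatase subunits, *CHLI1* (-0.68), *CHLI2* (-0.15) and *CHLD* (-0.34), were not called. *CRD1*, for the cyclase, averaged 352 ± 22.1 RPKM at ZT13 and 2591 ± 64.3 RPKM at ZT1 and *CAO*, for the enzyme that makes chlorophyll b, averaged 9.75 ± 0.477 RPKM at ZT13 and 244 ± 6.88 RPKM at ZT1 (log2 fold change -4.51, SE 0.13, adjusted p = 1.64e-14). *PORB*, for a light-dependent protochlorophyllide oxidoreductase, rose: it was at 242, 274 and 288 RPKM at ZT13, against 83.5, 73.6 and 61.99 RPKM at ZT1 (log2 fold change 1.87, SE 0.184, adjusted p = 1.91e-07). *PORC*, of the same family, averaged 131 ± 11.99 RPKM at ZT13 and 207 ± 9.21 RPKM at ZT1 and was not called. *PORA*, with 10 reads over the ZT13 libraries and 58 over the ZT1 libraries, was not called either. It was called lower on the recovered reads by DESeq2 (−2.78), edgeR (−2.78) and voom (−2.55), and with a pseudocount of 0.1 (−2.2) or 0.5 (−1.35).

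Carotenoid genes showed a similar picture, with 7 of 18 lower and 1 higher (median −0.63). *BCH2*, for a beta-carotene hydroxylase, averaged 3.77 ± 0.902 RPKM at ZT13 and 124 ± 5.35 RPKM at ZT1 (log2 fold change -4.73, SE 0.159, adjusted p = 1.31e-13). *BCH1* averaged 72.95 ± 8.804 RPKM at ZT13 and 254 ± 14.6 RPKM at ZT1. *ABA1*, for zeaxanthin epoxidase, averaged 30.7 ± 1.302 RPKM at ZT13 and 367 ± 31.1 RPKM at ZT1 (log2 fold change -3.53, SE 0.128, adjusted p = 3.49e-13). *NPQ1*, for the violaxanthin de-epoxidase that runs the xanthophyll cycle in the opposite direction, averaged 94.2 ± 4.55 RPKM at ZT13 and 27.4 ± 2.03 RPKM at ZT1 (log2 fold change 1.75, SE 0.104, adjusted p = 2.78e-10). *HDR*, of the precursor pathway, had a log2 fold change of -2.34, and *CCD4*, for a carotenoid cleavage enzyme, of -2.83. *PSY*, for phytoene synthase, averaged 218 ± 4.61 RPKM at ZT13 and 517 ± 8.32 RPKM at ZT1; it (-1.24) and *DXS* (-1.13) were not called on deposited RPKM (-0.95 and -0.84).

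Several B-box genes were at or near 0 at ZT13. These zinc-finger proteins act in light signaling next to HY5. Of the 13 on the list, 9 were lower and 2 higher (median −4.27). The list holds members with a role in light signaling and was chosen with earlier results of these data known. Over all 18 tested genes with a *BBX* symbol, which leaves out *STO* and *STH*, 8 were lower and 4 higher (median −0.48). *BBX16* was at 0.269, 0.112 and 0.3101 RPKM at ZT13, against 132, 138 and 145 RPKM at ZT1 (log2 fold change -6.83, SE 0.117, adjusted p = 1.90e-17). *BBX28* averaged 0.361 ± 0.0704 RPKM at ZT13 and 105 ± 5.02 RPKM at ZT1, and *BBX30* was listed at 0 in all 3 ZT13 libraries and was at 38.98, 44.9 and 45.7 RPKM at ZT1. *STO* (*BBX24*), a repressor of light responses, was at 12.9, 11.8 and 13.5 RPKM at ZT13, against 436, 426 and 439 RPKM at ZT1 (log2 fold change -4.98, SE 0.096, adjusted p = 6.58e-17). Its homolog *STH* (*BBX25*) averaged 1.89 ± 0.145 RPKM at ZT13 and 165 ± 8.83 RPKM at ZT1. In the opposite direction, *BBX17* averaged 21.9 ± 1.66 RPKM at ZT13 and 5.76 ± 0.801 RPKM at ZT1 (log2 fold change 1.77, SE 0.208, adjusted p = 1.65e-06) and *BBX20* averaged 8.69 ± 0.959 RPKM at ZT13 and 1.44 ± 0.281 RPKM at ZT1 (log2 fold change 1.99, SE 0.159, adjusted p = 1.36e-08). *BBX21* (0.46) and *BBX22* (-0.13) were not called.

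Among 23 genes of photoreceptors and light signaling, 7 were lower and 2 higher (median −0.72). *ELIP1* and *ELIP2*, early light-induced proteins that protect the photosystems in strong light, were high at ZT1 and low at ZT13: *ELIP1* was at 4.45, 6.52 and 2.74 RPKM at ZT13, against 321, 325 and 366 RPKM at ZT1 (log2 fold change -5.98, SE 0.337, adjusted p = 1.23e-10) and *ELIP2* averaged 1.47 ± 0.502 RPKM at ZT13 and 207 ± 22.4 RPKM at ZT1. *HYH*, a homolog of the light-signaling factor HY5, averaged 12.9 ± 0.624 RPKM at ZT13 and 110.2 ± 5.54 RPKM at ZT1 (log2 fold change -3.0, SE 0.136, adjusted p = 6.53e-12). *HY5* itself averaged 17.7 ± 2.41 RPKM at ZT13 and 42.1 ± 3.63 RPKM at ZT1 (-1.21, -0.93 on deposited RPKM and then not called). *RUP2*, a repressor of UV-B signaling, averaged 2.6 ± 0.277 RPKM at ZT13 and 35.95 ± 2.099 RPKM at ZT1. *SPA1*, a partner of the COP1 ubiquitin ligase, averaged 16.4 ± 1.13 RPKM at ZT13 and 47.4 ± 1.97 RPKM at ZT1. Of the photoreceptor genes, *CRY2*, for a blue-light receptor, averaged 103 ± 2.47 RPKM at ZT13 and 39.7 ± 1.94 RPKM at ZT1 (log2 fold change 1.36, SE 0.078, adjusted p = 1.61e-10). *CRY1* averaged 62.3 ± 2.62 RPKM at ZT13 and 87.5 ± 4.58 RPKM at ZT1 and was not called. *PHYB* averaged 18.4 ± 1.88 RPKM at ZT13 and 40.8 ± 0.516 RPKM at ZT1 (-1.11, and -0.83 on deposited RPKM, not called). *FHY1*, which carries phytochrome A into the nucleus, averaged 18.7 ± 1.32 RPKM at ZT13 and 6.49 ± 0.371 RPKM at ZT1 (log2 fold change 1.39, SE 0.131, adjusted p = 1.07e-07). *PHYA* averaged 27.4 ± 1.71 RPKM at ZT13 and 15.7 ± 0.919 RPKM at ZT1, with a log2 fold change of 0.77 here and 1.04 on deposited RPKM, where it was called.

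PHYTOCHROME INTERACTING FACTORS (PIFs) promote growth in the dark, and *PIF4* and *PIF5* are repressed by the evening complex. Both were low at ZT13: *PIF4* was at 3.49, 3.58 and 3.85 RPKM at ZT13, against 60.5, 59.1 and 55.4 RPKM at ZT1 (log2 fold change -3.68, SE 0.138, adjusted p = 5.41e-13). *PIF5* was at 8.71, 6.86 and 8.36 RPKM at ZT13, against 136, 145 and 152 RPKM at ZT1 (log2 fold change -4.02, SE 0.129, adjusted p = 6.48e-14). *PIF7* averaged 7.53 ± 0.916 RPKM at ZT13 and 40.4 ± 1.66 RPKM at ZT1. *PIF3* averaged 18.9 ± 1.41 RPKM at ZT13 and 12.9 ± 0.354 RPKM at ZT1 and *PIF1* averaged 9.17 ± 1.83 RPKM at ZT13 and 17.8 ± 0.756 RPKM at ZT1, neither of them called. *PIF1* passed by voom (−1.01). Of the 12 genes of this list, 5 were lower and 7 were not called (median −0.90). On the recovered reads 7 were lower by DESeq2 (median −1.93), 8 by edgeR (−1.95) and 9 by voom (−1.90), and the median was −1.56 with a pseudocount of 0.1. The other 2 that fell, *PIL1* (-1.04) and *IAA29* (-1.02), were below 4 RPKM in every library and were not called on deposited RPKM (-0.86 and -0.87). *PIL1* also lost its call without replicate 3 of ZT1 (−0.97) or replicate 1 of ZT13 (−0.97), and *IAA29* without replicate 2 of ZT1 (−0.81) or replicate 2 of ZT13 (−0.97).

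Sigma factors of the plastid RNA polymerase are made in the nucleus. *SIG5* was at 2.397, 2.13 and 2.35 RPKM at ZT13, against 104, 105 and 132 RPKM at ZT1 (log2 fold change -5.12, SE 0.33, adjusted p = 7.86e-10). *SIG1* averaged 51.1 ± 3.34 RPKM at ZT13 and 171 ± 5.46 RPKM at ZT1 (log2 fold change -1.72, SE 0.096, adjusted p = 1.11e-10). *SIG4* averaged 55.4 ± 3.45 RPKM at ZT13 and 26.6 ± 0.639 RPKM at ZT1 (log2 fold change 1.03, 0.99 without replicate 3 of ZT13). *SIG2*, *SIG3* and *SIG6* lay between -0.08 and 0.31 and were not called.

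Starch is made in the chloroplast by day and broken down at night. Of 14 genes of starch synthesis, 2 were lower and 2 higher, beside 5.97% and 5.44% of all genes tested (median −0.46 after scaling and −0.18 as deposited). *GBSS1*, for the granule-bound synthase that makes amylose, was at 3.199, 2.595 and 2.27 RPKM at ZT13, against 493, 509 and 558 RPKM at ZT1 (log2 fold change -7.15, SE 0.182, adjusted p = 3.25e-15). The soluble synthases differed: *SS2* averaged 19.2 ± 1.95 RPKM at ZT13 and 54.4 ± 0.737 RPKM at ZT1 (log2 fold change -1.46, SE 0.096, adjusted p = 1.02e-09). *SS4*, for the one that starts granules, averaged 45.8 ± 3.47 RPKM at ZT13 and 19.6 ± 1.098 RPKM at ZT1 (log2 fold change 1.18, SE 0.117, adjusted p = 2.03e-07). *SS1* (-0.61) and *SS3* (-0.35) were not called. Of the branching enzymes, *SBE2.1* averaged 61.9 ± 3.61 RPKM at ZT13 and 19.7 ± 1.54 RPKM at ZT1 (log2 fold change 1.60, SE 0.09, adjusted p = 1.15e-10) and *SBE2.2* 33.1 ± 1.45 RPKM at ZT13 and 49.9 ± 1.66 RPKM at ZT1. The genes of ADP-glucose pyrophosphorylase, *APL1* (-0.67), *APL3* (-0.72) and *ADG1* (0.16), were not called.

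Genes of starch breakdown were higher at ZT13 in 7 of 17 cases and lower in 2 (median 0.72 after scaling and 1.00 as deposited). *PWD* and *SEX1*, for the glucan dikinases that phosphorylate the granule surface, were higher, with *PWD* at 78.2, 85.2 and 78.9 RPKM at ZT13, against 13.6, 14.3 and 14.5 RPKM at ZT1 (log2 fold change 2.43, SE 0.082, adjusted p = 1.43e-13) and *SEX1* at 92.5, 86.7 and 86.7 RPKM at ZT13, against 25.8, 24.7 and 29.8 RPKM at ZT1 (log2 fold change 1.69, SE 0.105, adjusted p = 4.39e-10). *SEX4*, for the phosphatase that removes these phosphates, averaged 88.4 ± 6.14 RPKM at ZT13 and 29.4 ± 4.25 RPKM at ZT1. *ISA3*, for a debranching enzyme, was at 48.7, 46.1 and 42.95 RPKM at ZT13, against 4.85, 4.75 and 6.65 RPKM at ZT1 (log2 fold change 2.88, SE 0.102, adjusted p = 2.67e-13). *DPE1*, for the plastid enzyme that joins short glucans, averaged 30.4 ± 2.95 RPKM at ZT13 and 5.75 ± 0.164 RPKM at ZT1 (log2 fold change 2.21, SE 0.095, adjusted p = 3.19e-12). Both glucan phosphorylase genes rose, *PHS2* of the cytosol (106 ± 0.786 RPKM at ZT13 and 26.5 ± 2.304 RPKM at ZT1) and *PHS1* of the plastid (64.5 ± 3.67 RPKM at ZT13 and 28.04 ± 1.02 RPKM at ZT1). None of the beta-amylase genes was called higher. *BAM9* was at 13.03, 12.1 and 11.4 RPKM at ZT13, against 100.5, 85.1 and 96.6 RPKM at ZT1 (log2 fold change -2.85, SE 0.14, adjusted p = 1.93e-11). *BAM1* averaged 77.8 ± 4.25 RPKM at ZT13 and 172 ± 12.5 RPKM at ZT1 (-1.13, -0.84 and not called on deposited RPKM). *BAM3*, the main leaf beta-amylase, averaged 338 ± 25.96 RPKM at ZT13 and 512 ± 57.6 RPKM at ZT1 and was not called. In the other direction, *BAM4* had 1111 reads over the ZT13 libraries and 646 over the ZT1 libraries. *BAM5* had 5193 reads at ZT13 and 3942 at ZT1, and neither gene was called. *LDA*, another debranching enzyme gene, had a log2 fold change of 0.94 and was called on deposited RPKM only (1.21).

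**Figure D3:**
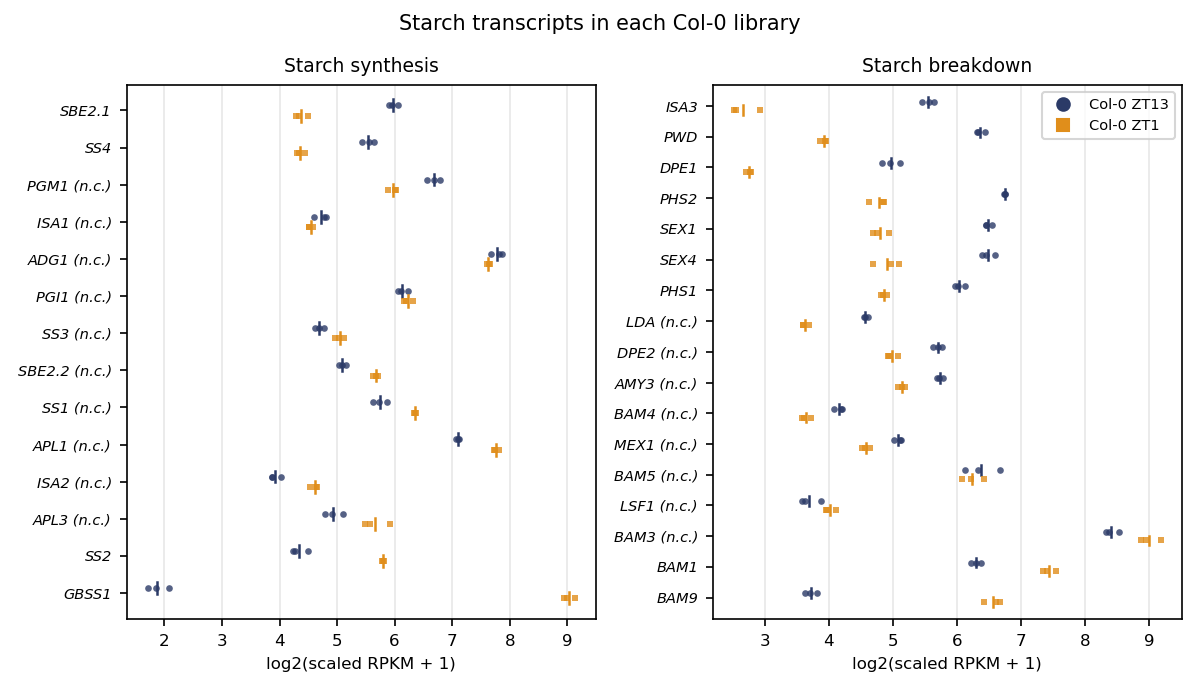
Levels of 14 genes of starch synthesis and 17 of starch breakdown as log2(scaled RPKM + 1) in each Col-0 library, with the ZT13 libraries as circles, the ZT1 libraries as squares and a bar at each mean; genes not called are marked n.c. *GBSS1* averaged 2.69 ± 0.4698 RPKM at ZT13 and 519.7 ± 33.95 RPKM at ZT1, and 7 genes of breakdown lay higher at ZT13.

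Genes known to respond to darkness or low sugar were higher in 6 of 21 cases and lower in 1 (median 0.76), and on deposited RPKM, where the median was 1.03, 11 were called higher and 1 lower. *DIN10*, for a raffinose synthase-like protein, was at 55.1, 59.02 and 57.9 RPKM at ZT13, against 13.2, 9.57 and 9.65 RPKM at ZT1 (log2 fold change 2.32, SE 0.197, adjusted p = 2.92e-08). *TPS10*, of the trehalose phosphate synthase family, averaged 34.7 ± 2.78 RPKM at ZT13 and 8.003 ± 1.14 RPKM at ZT1 (log2 fold change 1.99, SE 0.132, adjusted p = 1.05e-09) and *TPS9* averaged 18.7 ± 1.83 RPKM at ZT13 and 5.31 ± 1.01 RPKM at ZT1. *DIN11* (17.7 ± 0.554 RPKM at ZT13 and 5.01 ± 0.887 RPKM at ZT1), *DIN1*, also known as *SEN1* (30.9, 27.1 and 38.2 RPKM at ZT13, against 16.4, 7.16 and 7.48 RPKM at ZT1), and the glutamate dehydrogenase gene *GDH1* (70.3 ± 8.199 RPKM at ZT13 and 30.3 ± 0.851 RPKM at ZT1) were higher. *DIN9*, for a phosphomannose isomerase, was lower (1.76 ± 0.383 RPKM at ZT13 and 9.58 ± 1.96 RPKM at ZT1, log2 fold change -1.93, SE 0.253, adjusted p = 5.67e-06). *DIN6*, for asparagine synthetase 1, averaged 12.3 ± 4.41 RPKM at ZT13 and 10.2 ± 3.93 RPKM at ZT1 with overlapping libraries. Genes of the breakdown of branched-chain amino acids, *MCCA* (0.99), *MCCB* (0.68) and *IVD* (0.57), were not called, and *MCCA* passed on deposited RPKM (1.26) and on the recovered reads by DESeq2 (1.07), edgeR (1.02) and voom (1.03).

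Of 21 flavonoid and anthocyanin genes tested, 14 were lower and 7 were not called (median −1.58). The genes that fell encode enzymes and regulators. *PAL1*, for a phenylalanine ammonia lyase that opens phenylpropanoid synthesis, averaged 83.96 ± 14.9 RPKM at ZT13 and 466 ± 6.41 RPKM at ZT1 (log2 fold change -2.48, SE 0.15, adjusted p = 3.41e-10). *PAL2*, of the same kind, averaged 46.9 ± 6.36 RPKM at ZT13 and 329 ± 19.1 RPKM at ZT1. *4CL3* had a log2 fold change of -3.08, *F3H* of -2.88 and *FLS1*, for flavonol synthase, was at 28.7, 39.7 and 31.2 RPKM at ZT13, against 258, 282 and 262 RPKM at ZT1 (log2 fold change -2.98, SE 0.203, adjusted p = 1.61e-09). *CHS*, for chalcone synthase, averaged 389 ± 74.9 RPKM at ZT13 and 781 ± 88.6 RPKM at ZT1 (-1.02), but was not called on deposited RPKM (-0.73) or after quantile normalization (-0.87). Its call was also lost without replicate 2 or 3 of ZT1 (−0.97 each), replicate 1 of ZT13 (−0.99) or replicate 3 of ZT13 (−0.89). The flavonoid glycosyltransferase genes *UGT78D1* (-1.75) and *UGT78D2* (-1.71) were lower as well. *F3'H*, for a flavonoid hydroxylase, had a log2 fold change of -0.10 and was not called. The anthocyanin genes *DFR* (142 ± 29.5 RPKM at ZT13 and 124 ± 20.3 RPKM at ZT1), *LDOX* (113 ± 21.8 RPKM at ZT13 and 126 ± 9.66 RPKM at ZT1) and *UGT79B1* (40.1 ± 8.56 RPKM at ZT13 and 48.9 ± 5.505 RPKM at ZT1) overlapped between the times. Of the regulators, *PAP1*, a MYB activator of anthocyanin genes, averaged 9.22 ± 1.91 RPKM at ZT13 and 74.2 ± 8.04 RPKM at ZT1 (log2 fold change -2.89, SE 0.185, adjusted p = 7.17e-10). *MYBL2*, a repressor of them, averaged 8.44 ± 0.579 RPKM at ZT13 and 64.4 ± 13.8 RPKM at ZT1 (log2 fold change -2.77, SE 0.231, adjusted p = 2.22e-08). *MYB12* and *MYB11*, activators of flavonol genes, were lower from levels under 4 RPKM (-1.31 and -1.58).

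Of 13 cold response genes, 4 were higher and 2 lower, beside 5.44% and 5.97% of all genes tested (median 0.44). *COR15B* averaged 162 ± 6.63 RPKM at ZT13 and 66.7 ± 7.72 RPKM at ZT1 (log2 fold change 1.27, SE 0.242, adjusted p = 0.000289). *LTI30* averaged 50.6 ± 21.9 RPKM at ZT13 and 18.1 ± 5.49 RPKM at ZT1 (log2 fold change 1.4, SE 0.564, adjusted p = 0.0495) and was not called by voom (1.38) or without replicate 2 of ZT1 (1.18) or replicate 1 of ZT13 (1.07). *KIN1* averaged 226 ± 43.5 RPKM at ZT13 and 111 ± 16.02 RPKM at ZT1 (1.01), and was not called by edgeR (0.98) or voom (0.97), in a fit of the 6 libraries alone (0.99), or without replicate 2 of ZT1 (0.92) or replicate 1 of ZT13 (0.86). *GOLS3*, for a galactinol synthase, was at 0.315, 0.263 and 0.145 RPKM at ZT13, against 10.7, 6.401 and 10.8 RPKM at ZT1 (log2 fold change -3.02, SE 0.231, adjusted p = 7.40e-09). The CBF factors, which switch on the cold genes and sit next to each other on chromosome 4, had wide spreads. *CBF1* was at 13.8, 27.1 and 29.04 RPKM at ZT13, against 11.4, 11.3 and 8.62 RPKM at ZT1 (1.03, and between 0.85 and 0.91 without replicate 2 or 3 of ZT13 or replicate 3 of ZT1). *CBF3* was at 1.22, 0.304 and 0.898 RPKM at ZT13, against 3.703, 2.61 and 2.19 RPKM at ZT1 (-1.10, −0.95 without replicate 1 of ZT1 and −0.88 without replicate 2 of ZT13). *CBF2* was at 12.4, 24.7 and 22.9 RPKM at ZT13, against 38.05, 41.03 and 24.98 RPKM at ZT1; it was not called with all libraries and was called without replicate 3 of ZT1 (−1.01). *COR47* (0.93) passed on deposited RPKM (1.22) and after quantile normalization (1.15).

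Among 19 genes of nitrogen and sulfur assimilation, 4 were higher and 5 lower (median −0.05 after scaling, 0.24 as deposited and 0.12 after quantile normalization). *APR2*, for an APS reductase that controls sulfate reduction, averaged 36.96 ± 4.95 RPKM at ZT13 and 415 ± 41.3 RPKM at ZT1 (log2 fold change -3.46, SE 0.218, adjusted p = 5.91e-10). *APR1*, of the same kind, averaged 26.9 ± 2.96 RPKM at ZT13 and 134 ± 12.5 RPKM at ZT1. *APS3*, for an ATP sulfurylase, had a log2 fold change of -1.35 and *APR3* of -1.18 (-0.89 on deposited RPKM and then not called). *APS1*, another ATP sulfurylase gene (-0.71), and *SIR*, for sulfite reductase (-0.42), were not called. *NRT1.1*, the dual-affinity nitrate transporter, averaged 36.2 ± 0.555 RPKM at ZT13 and 104 ± 10.7 RPKM at ZT1 (log2 fold change -1.49, SE 0.132, adjusted p = 5.13e-08). *ASN2*, for an asparagine synthetase, averaged 348 ± 25.9 RPKM at ZT13 and 137 ± 11.9 RPKM at ZT1 (log2 fold change 1.34, SE 0.13, adjusted p = 1.61e-07). *GLT1*, for the NADH-dependent glutamate synthase, averaged 100.3 ± 3.37 RPKM at ZT13 and 44.2 ± 4.001 RPKM at ZT1 (log2 fold change 1.17, SE 0.099, adjusted p = 2.77e-08). *GLN1;1*, for a cytosolic glutamine synthetase, averaged 114 ± 39.2 RPKM at ZT13 and 49.2 ± 7.53 RPKM at ZT1 (1.15, and 0.90 without replicate 1 of ZT13). *UPM1*, of siroheme synthesis, averaged 252 ± 19.9 RPKM at ZT13 and 120.1 ± 22.8 RPKM at ZT1 (1.08, and 0.91 without replicate 1 of ZT1). The nitrate reductase genes *NIA1* (119.7 ± 16.9 RPKM at ZT13 and 93.6 ± 13.1 RPKM at ZT1) and *NIA2* (786 ± 65.2 RPKM at ZT13 and 702 ± 85.7 RPKM at ZT1) overlapped between the times.

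Of 13 heat shock genes, 6 were lower and 7 were not called (median −0.90). On the recovered reads DESeq2, edgeR and voom each called 8 lower and 1 higher (medians −1.53, −1.56 and −1.5), and the median was −1.44 with a pseudocount of 0.1. *HSP70* was at 9.37, 8.83 and 6.14 RPKM at ZT13, against 77.3, 99.95 and 115 RPKM at ZT1 (log2 fold change -3.43, SE 0.311, adjusted p = 6.44e-08). *HSFA2*, for a heat shock factor, was at 5.72, 5.92 and 4.93 RPKM at ZT13, against 37.96, 66.1 and 69.2 RPKM at ZT1 (log2 fold change -3.13, SE 0.297, adjusted p = 1.18e-07). *HSP90.1* averaged 7.06 ± 2.37 RPKM at ZT13 and 28.1 ± 3.03 RPKM at ZT1. On deposited RPKM, 5 of 10 genes of protein folding in the endoplasmic reticulum (ER) were higher (median 1.01). After scaling 8 were not called (median 0.73) and 2 were higher, beside 5.44% of all genes tested. These were *PDI5*, for a protein disulfide isomerase (169, 125 and 132 RPKM at ZT13, against 45.4, 44.4 and 44.4 RPKM at ZT1, log2 fold change 1.63, SE 0.119, adjusted p = 3.87e-09), and *SDF2* (103 ± 7.17 RPKM at ZT13 and 43.3 ± 1.23 RPKM at ZT1). *BIP2* (0.75) and *CRT1A* (0.86) were called on deposited RPKM only (1.03 and 1.15).

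Several genes of salicylic acid (SA) defense were higher at ZT13 than at ZT1. Of 16 SA genes, 6 were higher and 10 were not called (median 0.66 after scaling, 0.92 as deposited, where 8 were called, and 1.05 by DESeq2, which called 7). *PR2*, for a beta-glucanase, was at 389, 300.5 and 316 RPKM at ZT13, against 31.1, 19.4 and 42.1 RPKM at ZT1 (log2 fold change 3.46, SE 0.293, adjusted p = 2.83e-08), *PR1* at 226, 167 and 144 RPKM at ZT13, against 29.6, 17.8 and 51.7 RPKM at ZT1 (log2 fold change 2.50, SE 0.658, adjusted p = 0.00429) and *PR5* at 306, 183 and 264 RPKM at ZT13, against 69.4, 55.2 and 72.5 RPKM at ZT1 (log2 fold change 1.90, SE 0.235, adjusted p = 3.05e-06). No library of one time reached the range of the other for any of the 3, as was the case for 61.0% of all genes tested. *PAD4*, a lipase-like signaling gene, averaged 35.5 ± 3.08 RPKM at ZT13 and 11.7 ± 1.62 RPKM at ZT1 (log2 fold change 1.53, SE 0.164, adjusted p = 5.02e-07). *SARD1*, a transcription factor of SA synthesis, averaged 31.6 ± 3.53 RPKM at ZT13 and 7.89 ± 1.02 RPKM at ZT1 (log2 fold change 1.88, SE 0.229, adjusted p = 2.47e-06). *CBP60G*, its homolog, averaged 40.6 ± 2.91 RPKM at ZT13 and 18.4 ± 3.83 RPKM at ZT1 (1.12, and 0.94 without replicate 1 of ZT1). The SA synthesis gene *ICS1* averaged 13.6 ± 2.68 RPKM at ZT13 and 11.8 ± 1.21 RPKM at ZT1 with overlapping libraries. *EDS1*, the partner of PAD4, averaged 26.96 ± 3.54 RPKM at ZT13 and 20.3 ± 1.95 RPKM at ZT1, and the SA exporter gene *EDS5* averaged 16.4 ± 2.204 RPKM at ZT13 and 8.47 ± 2.08 RPKM at ZT1 (0.90); none of these 3 was called. *EDS5* passed on deposited RPKM (1.16) and without replicate 1 of ZT1 or replicate 3 of ZT13 (1.01 each). The receptor genes *NPR1* (0.54), *NPR3* (0.02) and *NPR4* (-0.29) were not called either.

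Of 16 jasmonic acid (JA) genes, 4 were higher and 12 were not called (median 0.22 after scaling, 0.51 as deposited, where 6 were called). The median was 0.09 without replicate 2 of ZT1 and 0.34 without replicate 3 of ZT1. Of the synthesis genes, *AOC2*, for an allene oxide cyclase, was at 1115, 1220.3 and 965 RPKM at ZT13, against 179, 99.4 and 164 RPKM at ZT1 (log2 fold change 2.93, SE 0.253, adjusted p = 3.68e-08) and *LOX2*, for the lipoxygenase of the first step, at 1667, 2041 and 1543 RPKM at ZT13, against 598, 348 and 595 RPKM at ZT1 (log2 fold change 1.80, SE 0.226, adjusted p = 3.54e-06). *AOS* averaged 388 ± 32.1 RPKM at ZT13 and 374 ± 52.4 RPKM at ZT1 with overlapping libraries. The JA-responsive genes *VSP1* (725 ± 186 RPKM at ZT13 and 126 ± 47.6 RPKM at ZT1, log2 fold change 2.55, SE 0.644, adjusted p = 0.0032) and *PDF1.2* (58.7, 36.7 and 30.4 RPKM at ZT13, against 5.13, 2.21 and 16.9 RPKM at ZT1, log2 fold change 2.55, SE 0.586, adjusted p = 0.00154) were higher too. *VSP2*, also on the list, was not called here, but was called higher on deposited RPKM (1.27) and after quantile normalization (1.24). Regulators of the pathway were not called. The activator gene *MYC2* averaged 274 ± 57.6 RPKM at ZT13 and 274 ± 36.6 RPKM at ZT1, and the JAZ repressor genes on the list, *JAZ1*, *JAZ5*, *JAZ7*, *JAZ8*, *JAZ9* and *JAZ10*, had log2 fold changes between -0.74 and 0.35, none of them called.

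Genes induced by touch and wounding, many of which also respond to handling, were set beside the defense genes. By limma 0 of 8 were called in either direction (median 0.36, and 0.21 to 0.60 with 1 Col-0 library left out). At an unadjusted p under 0.05 there were 4, and at an adjusted p under 0.1 also 4, none of which passed the fold criterion. On the recovered reads edgeR, DESeq2 and voom called 0 as well. Over all genes tested 11.4% were called by limma, so that 0 of 8 is close to that share. A response present at both times would not be seen in this comparison. *ERF13* passed on deposited RPKM (1.06) and without replicate 1 of ZT13 (1.02). *TCH2* averaged 301 ± 45.7 RPKM at ZT13 and 398 ± 33.7 RPKM at ZT1, *TCH3* 510.4 ± 19.6 RPKM at ZT13 and 332 ± 31.5 RPKM at ZT1 and *TCH4* 388 ± 110.0 RPKM at ZT13 and 449.9 ± 68.4 RPKM at ZT1. The levels of *RRTF1* (57.1, 143 and 137 RPKM at ZT13, against 65.3, 93 and 99.8 RPKM at ZT1) and *ORA47* (164, 276 and 252 RPKM at ZT13, against 181, 249 and 252 RPKM at ZT1) overlapped between the times. Of the markers of other organs and cell types, limma called 0 of 5 root, 0 of 8 floral and 0 of 6 guard cell, epidermis, trichome and phloem genes. At an unadjusted p under 0.05 there were 1, 0 and 2, as at an adjusted p under 0.1 with no fold criterion. The other tools called 0 apart from the root gene *PHT1;1*, higher by DESeq2 (1.49). In marker lists this short, 0 calls is likewise close to the 11.4% called over all genes tested. The 5 tested root markers summed to 35.3 to 37.0 RPKM per library at ZT13 and 39.0 to 46.7 RPKM at ZT1, and 4 further root markers (*COBL9*, *EXP7*, *EXPA18* and *WER*) did not reach 0.3 RPKM in any group, although the tissue is labelled as whole plants. The 8 floral organ markers summed to 2.11 to 6.16 RPKM at ZT13 and 4.42 to 9.0 RPKM at ZT1. The 6 markers of guard cells, epidermis, trichomes and phloem summed to 191 to 200.4 RPKM at ZT13 and 183 to 194 RPKM at ZT1. In RNA from whole plants, fewer cells of a type and less RNA per cell cannot be told apart.

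**Figure D4:**
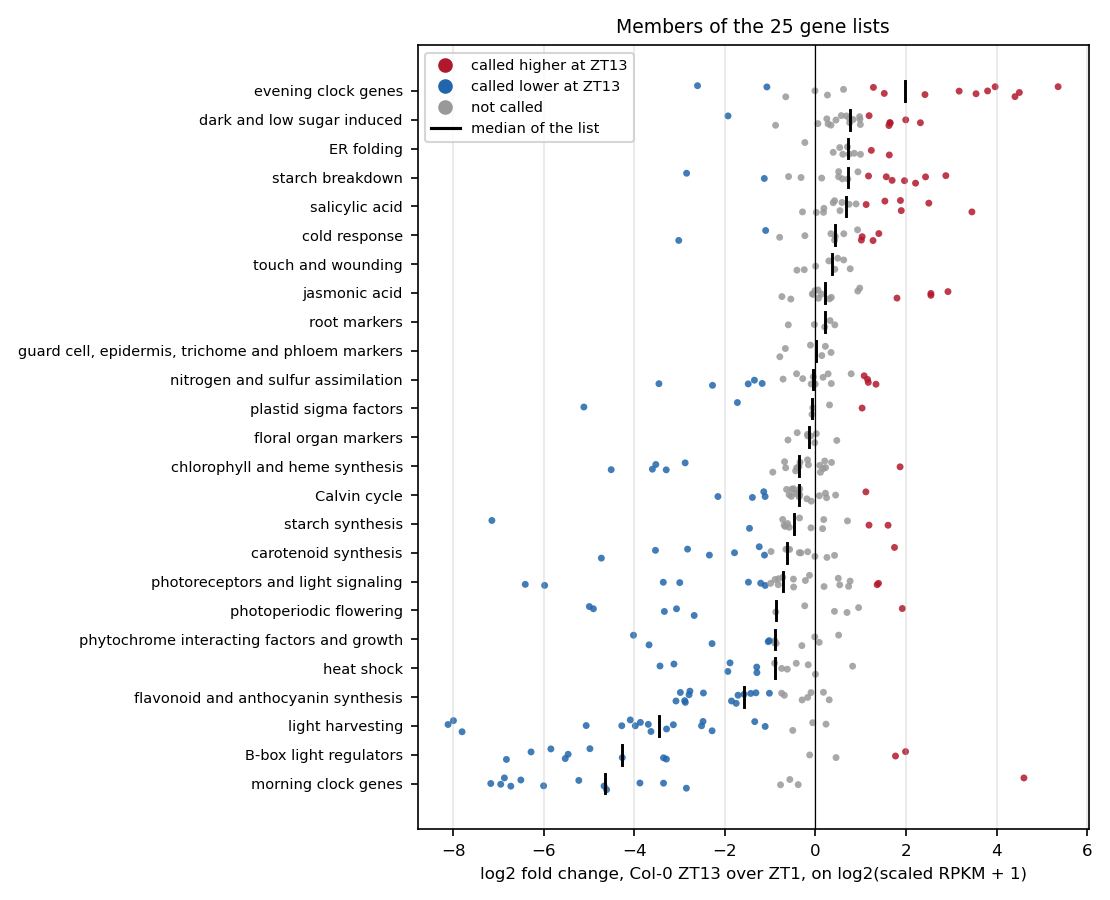
Log2 fold change of Col-0 ZT13 over ZT1 for each tested member of the 25 gene lists, on log2(scaled RPKM + 1), with members called higher in red, called lower in blue and not called in gray, and a black bar at the median of each list. Morning clock, B-box, light-harvesting and flavonoid genes have the lowest medians (−4.64, −4.27, −3.46 and −1.58) and evening clock genes the highest (1.97), beside 0.02 for all 21666 genes. Over all 18 tested genes with a *BBX* symbol the median was −0.48.

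The study's other genotypes allowed the question of whether the change between the times was the same without *LUX* or with constitutive defense. The time effect of each genotype, ZT13 over ZT1, was tested against that of Col-0 in the same model. All 3 tests share the 6 Col-0 libraries and are therefore not independent. The time effect differed from that of Col-0 for 638 of 21666 genes in *lux-1* (2.94%), with 448 larger (2.07%) and 190 smaller (0.877%). In *acd6-1* it differed for 1437 genes (6.63%), with 472 larger (2.18%) and 965 smaller (4.45%). In *acd6-1lux-1* it differed for 1746 genes (8.06%), with 878 larger (4.05%) and 868 smaller (4.01%). Replicate 3 of *acd6-1lux-1* at ZT1 mapped 60.51% of its reads, the lowest of the 22 libraries (median 80.71%). Its share of reads in chloroplast genome genes was the highest, at 0.661% (median 0.019%). Without this library the counts in *acd6-1lux-1* were 818 larger and 739 smaller. Larger means more positive, so that a fall that is less deep counts as larger. In *acd6-1*, the count of larger effects was 731 without replicate 2 of ZT13.

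Of the 16 morning genes, 9 fell less far in *lux-1* than in Col-0, with a median time effect of −3.56 in *lux-1* and −4.64 in Col-0. Several of them were below 1 RPKM at ZT13 in Col-0, where the added 1 limits the fall. Whether their *lux-1* levels differed at ZT1 or at ZT13 was not tested here. *LNK1* had a time effect of -3.58 in *lux-1* and -6.0 in Col-0 (difference 2.42, SE 0.226, adjusted p = 2.10e-06). *CCA1* had -5.78 in *lux-1* and -7.17 in Col-0 (difference 1.39, SE 0.269, adjusted p = 0.00406). *LUX* itself had 3.41 in *lux-1* and 0.62 in Col-0 (difference 2.79, SE 0.235, adjusted p = 8.61e-07). *ELF4* had 2.23 in *lux-1* and 4.50 in Col-0 (adjusted p = 0.00915), and *GRP7* 1.90 in *lux-1* and 3.97 in Col-0 (adjusted p = 7.86e-05). Of the 20 light-harvesting genes, 10 had a larger time effect in *lux-1*, with a median of −2.15 in *lux-1* and −3.46 in Col-0. The touch and wounding genes, with no member called in Col-0, had a larger time effect in *lux-1* in 7 of 8 cases (median 3.97 in *lux-1* and 0.36 in Col-0). A larger time effect can come from a higher level at ZT13 or a lower level at ZT1. For *RRTF1* the *lux-1* levels overlapped those of Col-0 at ZT13 and lay below them at ZT1.

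Of the 16 evening genes, 6 had a smaller time effect in *acd6-1* than in Col-0 (median 1.29 in *acd6-1* and 1.97 in Col-0), and so had 2 of the 16 morning genes. *RVE2* had a time effect of 0.77 in *acd6-1* and 4.61 in Col-0 (difference -3.84, SE 0.263, adjusted p = 5.96e-07). *PRR5* had -0.20 in *acd6-1* and 1.28 in Col-0 (adjusted p = 0.0114). Of the genes of darkness and low sugar, 15 of 21 had a smaller time effect in *acd6-1* (median −0.86 in *acd6-1* and 0.76 in Col-0). *DIN1* had -3.31 in *acd6-1* and 1.62 in Col-0 (adjusted p = 6.73e-06). Of the 21 flavonoid genes, 12 had a larger time effect (median −0.87 in *acd6-1* and −1.58 in Col-0). In *acd6-1lux-1*, 8 of the 16 morning genes had a larger and 6 of the 16 evening genes a smaller time effect than in Col-0, and 12 of the 20 light-harvesting genes a larger one (median −1.87 in *acd6-1lux-1* and −3.46 in Col-0).

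**Figure D5:**
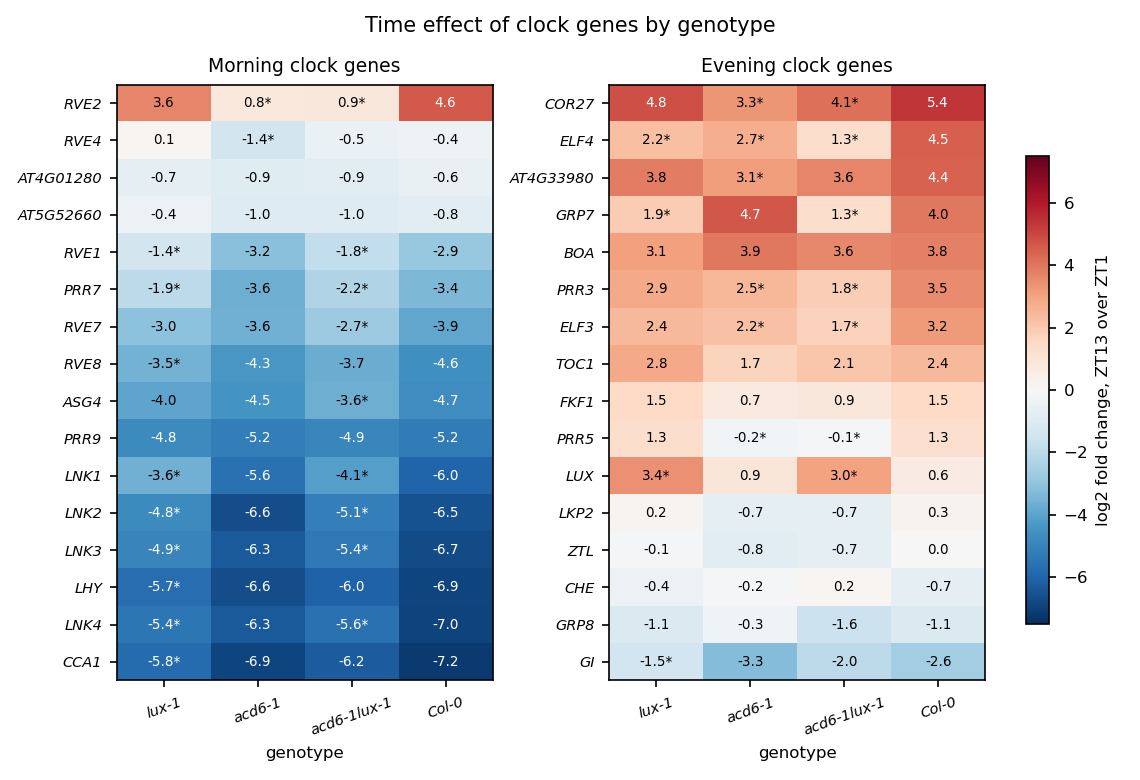
Time effect (log2 fold change of ZT13 over ZT1, on log2(scaled RPKM + 1)) of the 16 morning and 16 evening clock genes in *lux-1*, *acd6-1*, *acd6-1lux-1* and Col-0, written in each cell and shown by color. An asterisk marks a difference from the time effect in Col-0 that was called, which was the case for 9 morning genes in *lux-1*, 2 in *acd6-1* and 9 in *acd6-1lux-1*.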

How the data were processed

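RNA of 25-day-old whole plants was sequenced in 22 libraries of 8 groups. Per the paper's methods, these were TruSeq libraries of biological replicates run as single reads. The submitters' notes name CASAVA and TAIR10, with no versions. Aligner and counter: not given in the sources used here. RPKM of 25218 transcripts was used as deposited, reads per kilobase relative to the mapped reads of the library. The total reads of a library are a count in the authors' deposited sample sheet, which also gives mapped reads and their percentage. Col-0 libraries mapped 80.43 to 81.59% of their reads. A column of ratios of the authors' own comparison, which matches no sample, was left out (1 column). RPKM and mapped reads gave whole reads, within 0.001 of a read, for 100% of values. Of the identifiers, 24867 had a symbol or entry in a TAIR10.1 table.

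RPKM was divided by median-of-ratios factors from 19621 genes, in the manner of the DESeq factors named in the study's methods. The log2(scaled RPKM + 1) values of the 22 libraries were then fitted together by limma 3.58.1 in R 4.3.3, with 8 group means and a trend in the prior variance. The filter kept 21666 genes whose mean RPKM passed 0.3 in 1 group or more. Calls needed a Benjamini-Hochberg adjusted p under 0.1 together with a log2 fold change above 1 in size. The fit was tested on simulated reads with known changes. The 25 gene lists and the members compared were chosen with earlier results of these data known. Named genes are the 12 largest rises and falls that were called without overlap under 3 scalings, all tested clock genes, up to 6 members of each other list with the smallest adjusted p and those against its majority, the 10 most abundant genes, and the 5 largest called differences of each genotype. Other names were chosen after their values were seen. Alternatives were deposited RPKM, quantile normalization, another pseudocount (0.1 or 0.5), no filter or one at 1 RPKM, only the libraries compared, no trend, a threshold of 0.05, no fold criterion, a replicate block, each library left out, and tests of the recovered reads by voom, edgeR 4.0.16 and DESeq2 1.42.0.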

Additional observations from a re-analysis of the deposited data

Results flagged for a closer look

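The change between the times differed between each mutant and Col-0 for several genes of the clock lists and for other genes, of which the 5 with the largest difference in each mutant are given, by the test of the difference of the 2 time effects in limma (adjusted p under 0.1 and a difference above 1 in size on the log2 scale). Differences below are the time effect of the mutant minus that of Col-0; all comparisons share the 6 Col-0 libraries, and no cause was tested.

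In *lux-1*, the largest differences were those of stress-response genes that were not called in Col-0: *RRTF1*, an ERF factor of early stress responses (5.43), AT4G29780 (5.15), *ORA47*, an ERF factor of the JA response (4.59), *CBF2* (4.23) and *SZF1*, a zinc-finger gene (4.13). *RRTF1* ranged from 141 to 196 RPKM over the *lux-1* libraries of ZT13 and from 0.8395 to 4.44 RPKM over those of ZT1. The ZT13 range overlapped the Col-0 levels given above, and the ZT1 range lay below every Col-0 library. Among genes that fell in Col-0, the difference was positive, hence the fall less deep, for *LNK1* (2.42), *LNK3* (1.80), *LNK2* (1.76), *LNK4* (1.52), *RVE1* (1.48), *PRR7* (1.41), *CCA1* (1.39), *GI* (1.14), *LHY* (1.13) and *RVE8* (1.08). *LUX* differed by 2.79. Among genes that rose in Col-0, the difference was negative for *ELF4* (−2.27) and *GRP7* (−2.07).

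In *acd6-1*, where 472 genes had a larger and 965 a smaller time effect than in Col-0, the 5 largest differences and those of 8 clock genes were negative: *PCR1* (−4.94), *DIN1* (−4.93), AT2G33830 (−4.24), *LURP1*, a gene of late upregulation in response to an oomycete (−4.12), the beta-galactosidase gene *BGAL4* (−3.90), *RVE2* (−3.84), *COR27* (−2.03), *ELF4* (−1.78), *PRR5* (−1.48), AT4G33980, which is listed at 0 in Col-0 at ZT1 (−1.27), *PRR3* (−1.04), *RVE4* (−1.01) and *ELF3* (−1.0). *LURP1* was at 579, 402 and 472 RPKM at ZT13, against 58.5, 26.9 and 40.8 RPKM at ZT1 in Col-0 and *BGAL4* at 13.8, 14.2 and 18.6 RPKM at ZT13, against 3.82, 2.26 and 2.74 RPKM at ZT1.

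In *acd6-1lux-1*, they were negative for AT2G33830 (−5.34), *PCR1* (−4.88), *DIN1* (−4.39), *LURP1* (−4.33), *RVE2* (−3.73), *ELF4* (−3.16), *GRP7* (−2.65), *PRR3* (−1.72), *ELF3* (−1.43), *PRR5* (−1.36) and *COR27* (−1.22), and positive for *RRTF1* (4.07), *LUX* (2.43), *LNK1* (1.90), *LNK2* (1.37), *LNK3* (1.37), *LNK4* (1.35), *RVE7* (1.14), *PRR7* (1.12), *ASG4* (1.03) and *RVE1* (1.01).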

How the results depend on the processing

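Of 382 tested genes that were named or on a list 176 were called, and 153 of these kept direction and call under every alternative on RPKM or reads. The counts of calls kept within 1.5 times of the reported value under all alternatives but the following. RPKM as deposited gave 2036 higher and 809 lower genes in Col-0, 310 larger time effects in *acd6-1* and 1405 smaller ones in *acd6-1lux-1*. On the recovered reads, edgeR gave 1955 lower genes in Col-0 and 1036 larger effects in *acd6-1*, voom 1962 and 1081, and DESeq2 720 larger effects in *acd6-1*. A pseudocount of 0.1 gave 756 larger effects in *acd6-1*. With no fold criterion there were 6178 higher and 5609 lower genes in Col-0 (54.4% of all), 996 larger and 767 smaller effects in *lux-1*, 3203 and 3813 in *acd6-1*, and 2945 and 3234 in *acd6-1lux-1*. After quantile normalization *FBA2* reversed to 0.02 and *LHCB4.1* to 0.06. With 1 library left out, genes higher in Col-0 ranged from 1077 to 1281 and genes lower from 1262 to 1338; larger and smaller effects ranged from 407 to 536 and 128 to 214 in *lux-1*, from 400 to 731 and 808 to 1195 in *acd6-1*, and from 773 to 1006 and 705 to 1217 in *acd6-1lux-1*. Of those 382 genes, settings also called some that were not called here: 19 on deposited RPKM (14 lost), 18 by DESeq2, 15 each by edgeR and voom, and 16 with a pseudocount of 0.1. On deposited RPKM the medians of the carotenoid, photoreceptor, starch synthesis and cold lists were −0.34, −0.44, −0.18 and 0.73. The median of the morning list moved to −6.25 with voom and −6.07 with a pseudocount of 0.1, since many of its genes are near 0 at ZT13. Same-numbered Col-0 libraries correlated in their deviations at 0.141, 0.137 and −0.0387, and differently numbered ones at −0.207 to 0.119. So few libraries cannot decide whether the numbers pair them. A replicate block gave 1181 higher and 1294 lower genes. The causes of these moves, other than the construction of each alternative, were not tested. Genes of a few reads per library are limited by depth.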

Other observations

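A few transcripts were near 0 at one time and counted in every library of the other. With at most 3 reads over the 3 libraries of one time and at least 30 reads in each library of the other, 2 genes were present at ZT13 and near 0 at ZT1 (AT4G33980 and AT1G57850), and 8 were near 0 at ZT13 and present at ZT1. The 8 were *CIPK20*, for a protein kinase that binds calcium sensors, with 1 read over the ZT13 libraries and at least 366 reads in each ZT1 library, *BBX30*, *GDPD6*, AT1G15825, AT1G26790, AT3G55580, AT4G27360 and AT4G34550. Intervals for such counts would cover counting error only.

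Grouping of all tested genes by the letters of their symbol, a grouping chosen after the values were seen and given without a test, showed other families beside the 11.4% called of all genes. Of 12 *GSTF* genes, which encode glutathione transferases, 5 were higher at ZT13 and 1 was lower. Of 19 *ATG* genes of autophagy, 5 were higher and 1 was lower (median log2 fold change 0.56). Of 22 *XTH* genes, which encode enzymes that remodel cell wall xyloglucan, 1 was higher and 6 were lower, and of 16 *SAUR* genes, many of them induced by auxin, 1 was higher and 6 were lower (median −0.79). Of 14 *SWEET* sugar transporter genes, 2 were higher and 4 lower.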
